A study of Mus musculus with 4 samples.

Results

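The Pax7 binding sites described here are the 17 peaks, of 20579 in the deposited list, whose summits lie between 100 kb before the start and 100 kb after the end of Mef2c, Mef2d or Myog. The genes were placed with the GENCODE vM1 annotation of the NCBIM37 (mm9) mouse genome. Around them, peaks were taken by position alone, without regard to strength, sequence or distance to other genes. The genes themselves were chosen with earlier results of these data known. Mef2a, another gene of the same family, was left out of the set and is used for comparison only. The ChIP-seq was done in iPax7 cells, a mouse embryonic stem cell line that carries a single Pax7 cDNA beside Hprt under a doxycycline (Dox) responsive promoter. All 4 libraries, 2 of Pax7 ChIP and 2 of input chromatin, came from day 9 of serum differentiation. The cells had been exposed to 1 µg/ml Dox for 6 days, starting on day 3, and PDGFRα+FLK1- cells had been sorted on day 5 and grown on with Dox and 10 ng/ml basic FGF. Because every library carried the transgene and received Dox, no uninduced state is available for comparison here. The authors called peaks on the merged ChIP libraries over the merged inputs, so a peak has no replicate error and no test between groups was possible. A peak list holds no expression values, and the labelled cell type could therefore not be checked against its marker genes. No read depth is given in the list, so no counting interval was computed for a peak.

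Mef2c and Mef2d encode MADS-box transcription factors that bind A/T-rich sites in the control regions of muscle genes and cooperate with the myogenic bHLH factors. Myog encodes myogenin, the bHLH factor that binds E-boxes and is required for myoblasts to form fibres. Pax7, which has a paired domain and a homeodomain, marks muscle progenitors before these genes take over during terminal differentiation.

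Genome sequence is shown first for the sites on which the results turn, which are the strongest peak of each gene, the peaks at the start sites of Mef2c and Myog, and the remaining peaks that hold a Pax motif. Each line gives 101 bp of the plus strand of mm9 centred on the summit, except that the Myog start site is shown as its RefSeq promoter, 250 bp before to 50 bp after the start. RefSeq gives that promoter on GRCm38, and it was placed on mm9 by an exact match. Capitals in the summit windows mark a match to a Pax motif, and a line without capitals holds none of them. In the Myog promoter, capitals also mark the E-boxes and the A/T-rich core described below.
Mef2c, 65.1 kb past the gene end, chr13:83871779-83871879: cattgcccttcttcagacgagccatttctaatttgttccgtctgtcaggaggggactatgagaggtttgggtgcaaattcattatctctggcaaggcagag
Mef2c start site, chr13:83642598-83642698: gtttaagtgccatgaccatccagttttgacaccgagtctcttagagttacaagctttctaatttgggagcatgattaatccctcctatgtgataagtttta
Mef2d window, start site of Iqgap3, chr3:87885852-87885952: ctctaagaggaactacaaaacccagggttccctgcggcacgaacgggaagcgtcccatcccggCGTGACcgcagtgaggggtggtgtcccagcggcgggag
Myog window, exon of Tmem183a, chr1:136244521-136244621: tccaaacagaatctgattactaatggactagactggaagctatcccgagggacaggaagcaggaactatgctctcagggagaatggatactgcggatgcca
Myog window, intron of Ppfia4, chr1:136204312-136204412: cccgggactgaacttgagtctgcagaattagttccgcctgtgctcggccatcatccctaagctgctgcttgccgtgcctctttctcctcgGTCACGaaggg
Myog window, between Ppfia4 and Tmem183a, chr1:136241382-136241482: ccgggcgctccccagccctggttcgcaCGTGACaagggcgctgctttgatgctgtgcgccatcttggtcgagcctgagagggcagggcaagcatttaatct
Myog promoter, chr1:136186331-136186630: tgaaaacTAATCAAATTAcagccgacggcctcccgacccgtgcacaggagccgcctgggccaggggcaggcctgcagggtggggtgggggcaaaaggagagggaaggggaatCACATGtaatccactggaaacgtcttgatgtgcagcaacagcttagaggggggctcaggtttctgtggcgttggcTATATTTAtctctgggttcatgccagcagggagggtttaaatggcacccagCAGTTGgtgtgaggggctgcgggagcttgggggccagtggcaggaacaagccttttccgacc

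Pax7 peaks were found around all 3 genes, with 8 at Myog, 5 at Mef2c and 4 at Mef2d. At least 1 peak by the same window rule was held by 75.2% of the 22350 protein-coding genes on chromosomes 1 to 19 and X, with a median of 2 peaks per gene, so the presence of a peak does not set these genes apart. The count at Myog was above that of 95.2% of coding genes, the count at Mef2c above 80.6% and the count at Mef2d above 70.2%. Myog is the shortest of the 3 genes at 2.54 kb, against 29.7 kb for Mef2d and 164 kb for Mef2c, and its window is therefore the smallest. Per 100 kb of window, Myog had 3.95 peaks, Mef2d 1.74 and Mef2c 1.37, beside 0.805 peaks per 100 kb of sequenced genome. On this scale Mef2c stood above 65.8% of coding genes, Mef2d above 76.6% and Myog above 98.6%.

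**Figure D1:**
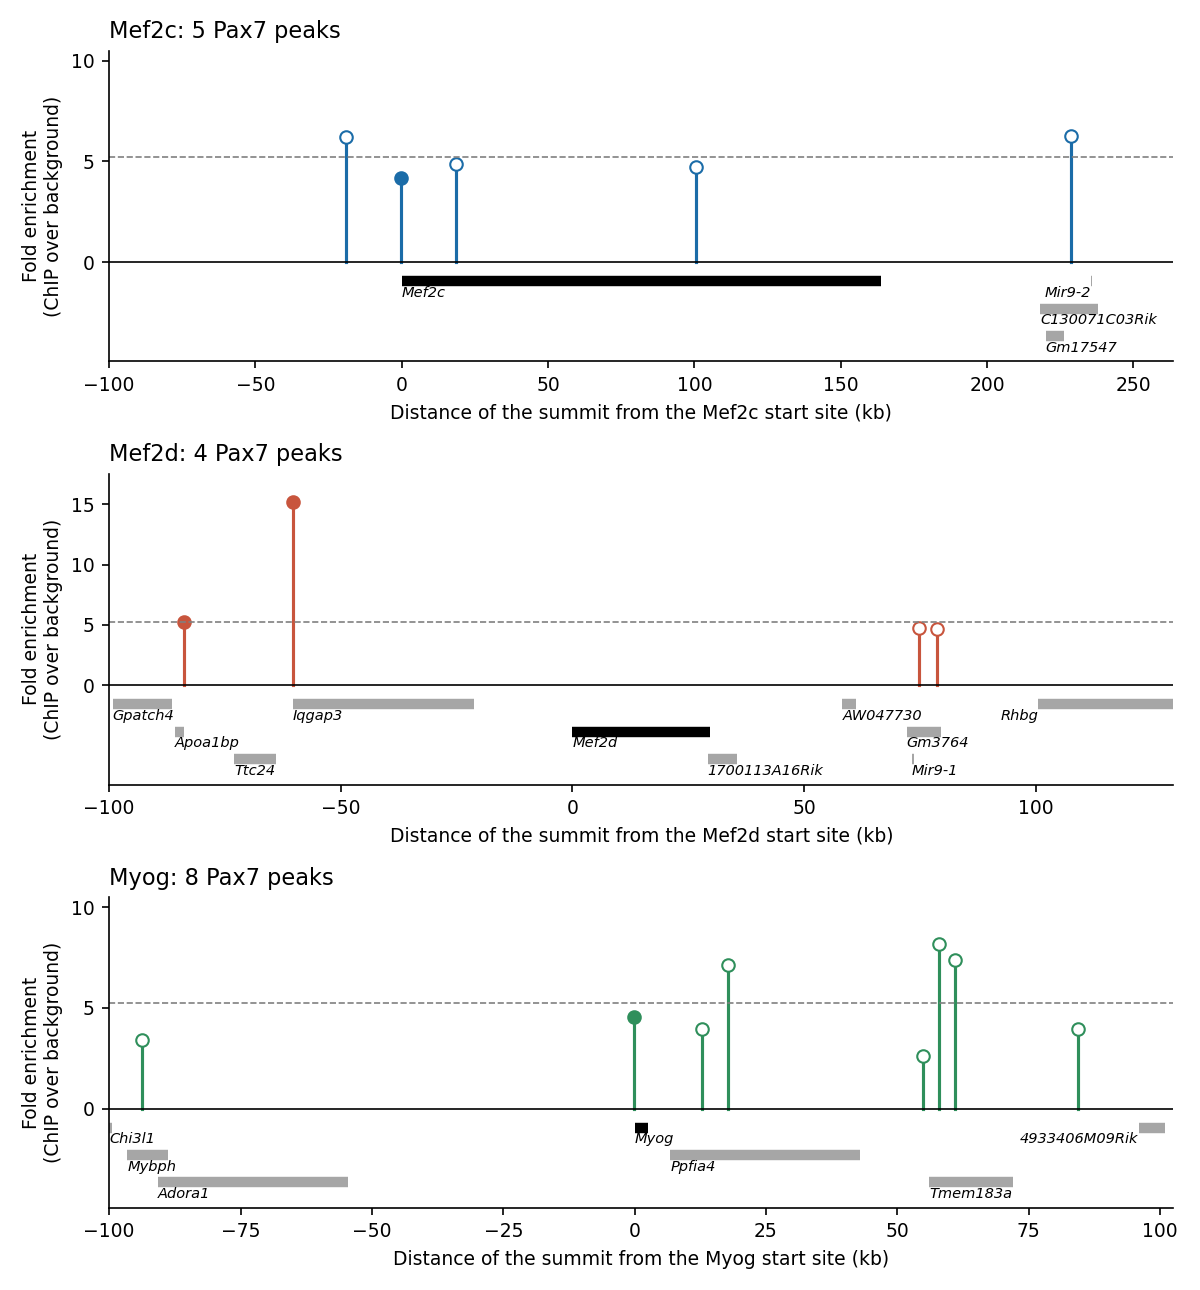
Pax7 peaks at Mef2c, Mef2d and Myog, with the distance of each summit from the start site of the gene in kb on the x axis and the authors' fold enrichment on the y axis. Each stem is 1 peak, filled circles mark summits within 1 kb of a GENCODE start site, the dashed line is the median of all peaks (5.22-fold), the black bar is the gene itself and grey bars are its neighbours. Peaks lie inside the gene at Mef2c only, and the 15.2-fold peak of the Mef2d window stands at the start of Iqgap3.

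**Figure D2:**
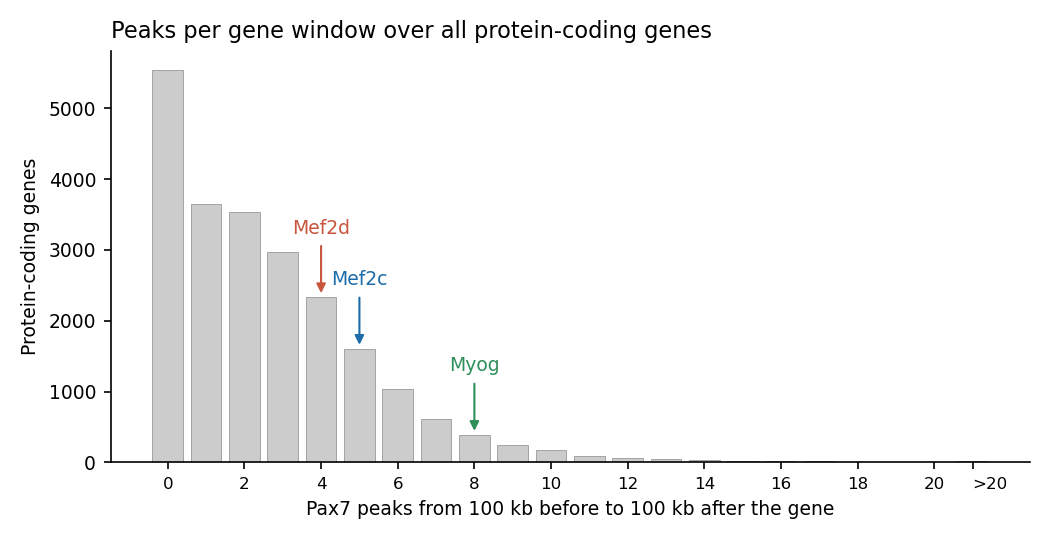
Number of protein-coding genes (y axis) by the number of Pax7 peaks in their window (x axis), with the last bar holding genes with more than 20. Arrows mark Mef2d at 4, Mef2c at 5 and Myog at 8 peaks, to the right of the median of 2.

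Mef2c lies on the plus strand of chromosome 13, from 83643033 to 83806684, and its 5 peaks were spread over the start site, the introns and the flanks. The peak at the start site ran from 83642508 to 83642761, with its summit 385 bp upstream, an enrichment of 4.16-fold and a −log10 q of 6.16. Fold enrichment is the ratio of ChIP to local background that the authors' peak caller gives at the summit, and −log10 q is its adjusted significance over that background. This site was the weakest of the 5, and 20.6% of all peaks had lower fold enrichment. A stronger peak stood 19.1 kb upstream in intergenic sequence (83623821 to 83624109), where ChIP was enriched 6.21-fold at a −log10 q of 15.5. Inside the gene, a peak in an intron 18.6 kb downstream of the first start (83661575 to 83661771) was enriched 4.88-fold at a −log10 q of 8.40. Its summit was 2300 bp upstream of the second start site that GENCODE annotates for Mef2c and 979 bp upstream of the second start in RefSeq, placed on mm9 by its promoter sequence. The other intronic peak, 101 kb downstream of the first start (83743633 to 83743812), was enriched 4.71-fold at a −log10 q of 7.67. The remaining peak had the highest values of the 5, 6.28-fold with a −log10 q of 17.8, and lay 65.1 kb past the end of the gene (83871717 to 83871974) in an intron of the lincRNA C130071C03Rik. The peaks 19.1 kb upstream and past the end had higher fold enrichment than those at the start site and in the Mef2c introns, although all 5 fell between 4.16 and 6.28. Fold enrichment by position was not computed over all peaks. Mef2c was the nearest protein-coding gene for 5 of its 5 peaks, but its window holds no other protein-coding gene. For the peak in C130071C03Rik the nearest Mef2c start was 208 kb away. The nearest start of any kind was that of the lincRNA Gm17547, at 2.64 kb. Between 100 and 200 kb from the gene no further peak was listed.

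Mef2d lies on the plus strand of chromosome 3, from 87946294 to 87976008, and its 4 peaks were all outside the gene, the nearest 45.0 kb past its end. The strongest of all 17 peaks was in this window, at 87885760 to 87886061, enriched 15.2-fold at a −log10 q of 74.6. It stood above 98.9% of the list and ranked 218 of 20579. However, it covered the start site of Iqgap3, which encodes a scaffold protein of the IQGAP family, with its summit 71 bp upstream of that start and 60.4 kb upstream of Mef2d. The other upstream peak (87862418 to 87862601) was enriched 5.23-fold at a −log10 q of 9.89. Its summit was 95 bp upstream of the start of Apoa1bp, an NAD(P)HX epimerase gene, and 83.8 kb from that of Mef2d. On the downstream side, a pair of peaks lay 3957 bp apart in the lincRNA Gm3764. The first (88020902 to 88021097) was in an intron, 45.0 kb past the end of Mef2d, enriched 4.71-fold at a −log10 q of 7.67. The second (88024889 to 88025101) was in an exon, 49.0 kb past the end, enriched 4.64-fold at a −log10 q of 8.17. Both were thus at modest values beside the 15.2-fold of the site at Iqgap3. Mef2d was the nearest coding gene for 0 of the 4 peaks, and which gene they act on was not tested.

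Myog lies on the plus strand of chromosome 1, from 136186581 to 136189124, and 6 of its 8 peaks were downstream. The peak at the start site ran from 136186234 to 136186593 and so covered the start itself. Its summit was 201 bp upstream, its fold enrichment 4.56 and its −log10 q 10.9, and it stood above 33.6% of all peaks by fold and 46.1% by −log10 q. Of the 300 bases of the Myog promoter printed above, 263 lay inside this peak. A pair of peaks followed in introns of Ppfia4, which encodes liprin-alpha-4 and is transcribed towards Myog. The nearer one, 12.8 kb downstream of the start (136199248 to 136199530), was enriched 3.93-fold at a −log10 q of 5.45, and the one 17.8 kb downstream (136204189 to 136204534) was enriched 7.15-fold at a −log10 q of 19.2. Their summits were 4992 bp apart, and the farther peak was above 78.8% of all peaks, whereas the nearer one was above 14.5%.

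Between 54.9 and 60.9 kb downstream of the Myog start, 3 peaks stood close together around the 3′ end of Tmem183a, a gene for a transmembrane protein. The first (136241287 to 136241519) was the weakest of the 17, enriched 2.59-fold at a −log10 q of 2.47, not far above the q-value limit of 0.01 that the authors set, and 0.272% of all peaks had a lower fold. The second (136244412 to 136244699), in an exon of Tmem183a, was the strongest of the Myog window, enriched 8.19-fold at a −log10 q of 24.8, above 85.8% of all peaks. The third (136247382 to 136247708), in an intron of the same gene, was enriched 7.38-fold at a −log10 q of 20.7. These neighbouring sites, 3139 and 2959 bp apart, thus ranged from near the bottom of the list to well above its upper quartile of 6.74. A peak 84.3 kb downstream in intergenic sequence (136270769 to 136271005) was enriched 3.95-fold at a −log10 q of 8.67. The single peak far upstream, 93.8 kb from the start (136092699 to 136092912), lay in an intron of Mybph, the gene for myosin-binding protein H of the thick filament, and was enriched 3.42-fold at a −log10 q of 4.53.

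Beyond the 100 kb limit, 3 further peaks were listed within 200 kb of Myog, 1 of them stronger than every peak inside the window. The members closest to the limit were the peak in Mybph, 93.8 kb before the gene, and the 3.95-fold peak 81.8 kb past its end. The peaks outside were 191 kb before the gene in intergenic sequence at 4.11-fold, 116 kb past the end in an exon of Cyb5r1 at 7.05-fold, and 128 kb past the end in an intron of Adipor1 at 8.97-fold. At Mef2d the outermost member was 83.8 kb before the gene, and the next peaks outside were 125 and 126 kb past its end with fold enrichments of 3.68 and 4.78, the second at Cct3.

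In strength, the 17 peaks spanned most of the list, from 2.59-fold to 15.2-fold. Their median of 4.71 was slightly below the 5.22 of all peaks, whose quartiles were 4.32 and 6.74. The median was 4.88 at Mef2c, 4.97 at Mef2d and 4.25 at Myog. At least 5-fold enrichment was seen at 7 of the 17 peaks, 2 at Mef2c, 2 at Mef2d and 3 at Myog, beside 54.9% of all peaks. Of the 17, 4 were above the upper quartile of the list, and 5 were below its lower quartile. The median −log10 q was 8.67 beside 11.6, and the median width 254 bp beside 252 bp. Some values recur in the list. The fourth Mef2c peak and the first of the Gm3764 pair carry the same fold enrichment and −log10 q, which 261 peaks have in common, and the number of peaks that share a member's values ran from 1 at Iqgap3 to that 261, with 8 at the weakest member and 102 at the 7.15-fold peak in Ppfia4.

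**Figure D3:**
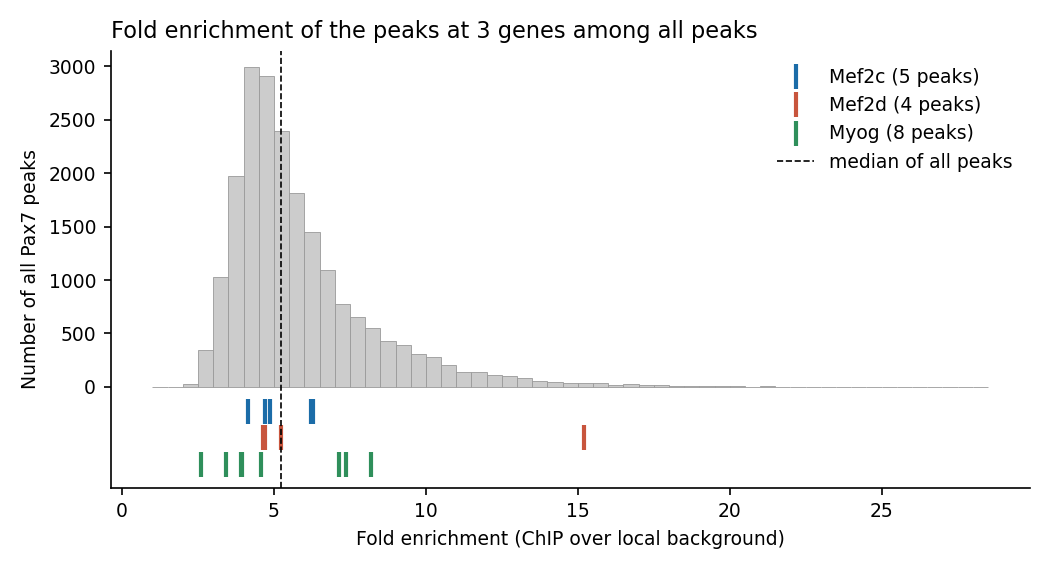
Distribution of fold enrichment over all 20579 Pax7 peaks (grey bars, bins of 0.5, y axis in peaks) with the 17 peaks at Mef2c, Mef2d and Myog as ticks below. The dashed line is the median of 5.22, above which lie 2 peaks of Mef2c, 2 of Mef2d and 3 of Myog, with 1 far to the right at 15.2.

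By position, 4 of the 17 summits were within 1 kb of a start site in GENCODE, beside 16.3% of all summits. These were the sites at Mef2c, Myog, Iqgap3 and Apoa1bp, and the RefSeq start 979 bp from the third Mef2c peak is not counted among them. A further 8 were in introns, 2 in exons and 3 between genes, where the whole list had 42.1%, 2.55% and 39.0%. A summit within 1 kb of one of their own start sites was held by 14.1% of protein-coding genes, and by Mef2c and Myog but not Mef2d of the 3 genes. At Mef2d the nearest summit was 60.4 kb from its start. Of the 17 summits, 8 were nearer to the start of the gene in whose window they lie than to that of any other coding gene. These were 5 at Mef2c, whose window holds no other coding gene, 3 at Myog and 0 at Mef2d. Over all coding genes, 30.0% of such pairs of a peak and a window were of this kind. The 5 Mef2c peaks were the poorest in G and C, with 38.4% to 43.0% of their bases. The peaks of the Mef2d window held 48.5% to 65.2% and those of the Myog window 45.6% to 65.2%. How many of all peaks fall in these ranges was not computed. At the start sites the share of G and C was 40.2% for Mef2c, 58.9% for Myog, 59.6% for Iqgap3 and 65.2% for Apoa1bp. Its median was 49.8% over the 17 peaks and 45.8% over all peaks.

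Recognition sequences were searched by their letters, on either strand, up to 50 bp from a summit. A Pax motif was present at 4 of the 17 summits, beside 15.4% of all peaks. The paired-box core GTCACG was found at 3, beside 11.1%, and these were the strongest and the weakest of the 17 peaks, at Iqgap3 (15.5 bp from the summit) and 54.9 kb downstream of Myog (20.5 bp), and the 7.15-fold peak in Ppfia4 (42.5 bp). The core thus occurred at both ends of the range of the 17 peaks, 15.2-fold and 2.59-fold. Whether it goes with fold enrichment over all peaks was not tested. The homeodomain dimer, TAAT and ATTA held 2 or 3 bases apart, was found at 1, the Myog start site, beside 1.82%, and ATTAGTCA, which joins a homeobox and a paired-box sequence, at 0, beside 2.94%. None of these letters was found near the 5 summits at Mef2c, which are too few for a 0 to say much beside 15.4% of all peaks. In windows of the same width centred 500 bp to either side of all summits, the core was present in 1.28% and ATTAGTCA in 0.321%. The dimer was present there in 0.294% at a spacing of 2 bases and in 0.279% at 3.

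Sites of the factors that these genes encode, and of partners of Pax7 in muscle, were as follows. The E-box CAGCTG, a bHLH site, lay within 50 bp of 1 of the 17 summits, the 3.95-fold peak 84.3 kb downstream of Myog, 3.5 bp from its summit, beside 15.7% of all peaks. CAGGTG was found at 1, in Mybph, beside 4.35%. Any CANNTG, which includes both and was added after the values were seen, was found at 4, beside 49.7%, and at 1 of these, 54.9 kb downstream of Myog, it overlaps the GTCACG match. The MEF2 consensus was found at 0, beside 1.46%, and the Runx letters TGTGGT at 0, beside 9.73%. The AP-1 letters TGANTCA were found at 1, beside 6.82%, in the intronic Mef2c peak 101 kb from the start, 32 bp from its summit. The Tead letters GGAATG were found at 1, the 7.38-fold peak in Tmem183a, beside 11.0%. The unrelated control GCACTG was found at 0, beside 6.86%. In the windows centred 500 bp to either side of all summits, CAGCTG was present in 4.56%, CAGGTG in 6.50% and CANNTG in 40.3%. The MEF2 consensus was present there in 1.91%, Runx in 7.23%, AP-1 in 3.26%, Tead in 5.33% and the control in 5.81%. CAGGTG and the MEF2 consensus were thus rarer at the summits of all peaks than beside them. With 17 summits, a count of 0 or 1 says little about any of these letters.

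The Myog promoter held several of the searched sequences in the 263 bases that the peak covers. The homeodomain dimer TAATCAAATTA began 243 bp upstream of the start, 37 bp from the summit, and 0.487% of the 32851 RefSeq promoters hold a dimer of this spacing. Closer to the start, TATATTTA began 63 bp upstream. It matches the A/T core of the MEF2 consensus, TA and TA with 4 bases of only A or T between, which 9.32% of promoters hold and which was added after the values were seen. This core was within 50 bp of 0 of the 17 summits, beside 3.81% of all peaks, and it also occurs 145 bp upstream of the Mef2c start, in a promoter that no peak overlaps. The full consensus, in 3.19% of promoters, was not matched. The E-boxes CACATG and CAGTTG began 138 and 12 bp upstream, and 72.3% of promoters hold at least 1 CANNTG. The summit was nearest to the dimer among these. These matches describe letters only.

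Both MEF2 windows contained a gene for the same microRNA, miR-9, which is known from the nervous system, and Pax7 peaks stood near each. Its mature 5p strand, identical from both genes in RefSeq, is shown with the seed, bases 2 to 8, in capitals.
mmu-miR-9-5p: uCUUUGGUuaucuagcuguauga
By exact match of the RefSeq hairpins to mm9, Mir9-2 is at 83878419 to 83878490 of chromosome 13, 71.7 kb past the end of Mef2c, and Mir9-1 at 88019520 to 88019608 of chromosome 3, 43.5 kb past the end of Mef2d. The 6.28-fold peak in C130071C03Rik had its summit 6.59 kb from Mir9-2, and the pair in Gm3764 had summits 1.52 and 5.47 kb from Mir9-1. The Mir9-2 hairpin lies within the span of C130071C03Rik and the Mir9-1 hairpin within that of Gm3764, so each shares a lincRNA gene with the peaks named. The downstream peaks of both MEF2 genes were thus closer to a miR-9 gene than to Mef2c or Mef2d. Whether they bear on the microRNA, the MEF2 gene or neither was not tested. The distances to miR-9 genes were not among the planned results. How often a microRNA gene has a Pax7 peak this near was not computed, so the closeness cannot be called unusual.

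The same window rule was applied to 26 other regulators of muscle differentiation, a list chosen with earlier results of these data known. Not all are confined to its terminal step, since the paper reports higher Myf5 expression in Dox-treated iPax7 cells. Peak counts at the 26 genes ranged from 0 to 18 with a median of 3.5. Among the myogenic bHLH genes, Myog had the most peaks with 8, followed by Myod1 with 7 and by Myf5 and Myf6, whose windows share the same 6. At 5-fold or more the order differed, with 3 at Myog, 4 at Myod1 and 4 at Myf5 and Myf6. The median fold enrichment was 4.25 at Myog, below 5.04 at Myod1 and 5.36 at Myf5 and Myf6. The highest fold enrichment was 12.9 at Myod1, 6.32 at Myf5 and Myf6 and 8.19 at Myog, and a summit lay within 1 kb of the start of Myf5 (6.32-fold) and of Myog (4.56-fold) but not of Myod1 or Myf6. In the MEF2 family, Mef2c had 5 peaks, Mef2d 4, Mef2a 2 and Mef2b 0. Both Mef2a peaks were within 1 kb of an annotated start site of that gene, at 3.57-fold and 4.35-fold, values near the 4.16-fold of the Mef2c start site. Counts of 8 or more were found at 2 of the 26, beside 4.83% of all coding genes. These were Tcf4 with 18 and Tcf12 with 12, both long genes for E proteins, the dimer partners of myogenin. Hdac5, Hdac4 and Myod1 followed with 7 each. Hdac5, which encodes a class IIa deacetylase that represses MEF2 factors, had the highest fold enrichment, 28.0 at its start site, followed by Vgll2 with 16.5 and Nfix with 14.7, and the 15.2-fold peak of the Mef2d window falls between these. Besides Mef2b, the cell cycle inhibitor gene Cdkn1c had 0 peaks. A peak within 1 kb of an own start site was present at 8 of the 26 genes, beside 14.1% of all coding genes.

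**Figure D4:**
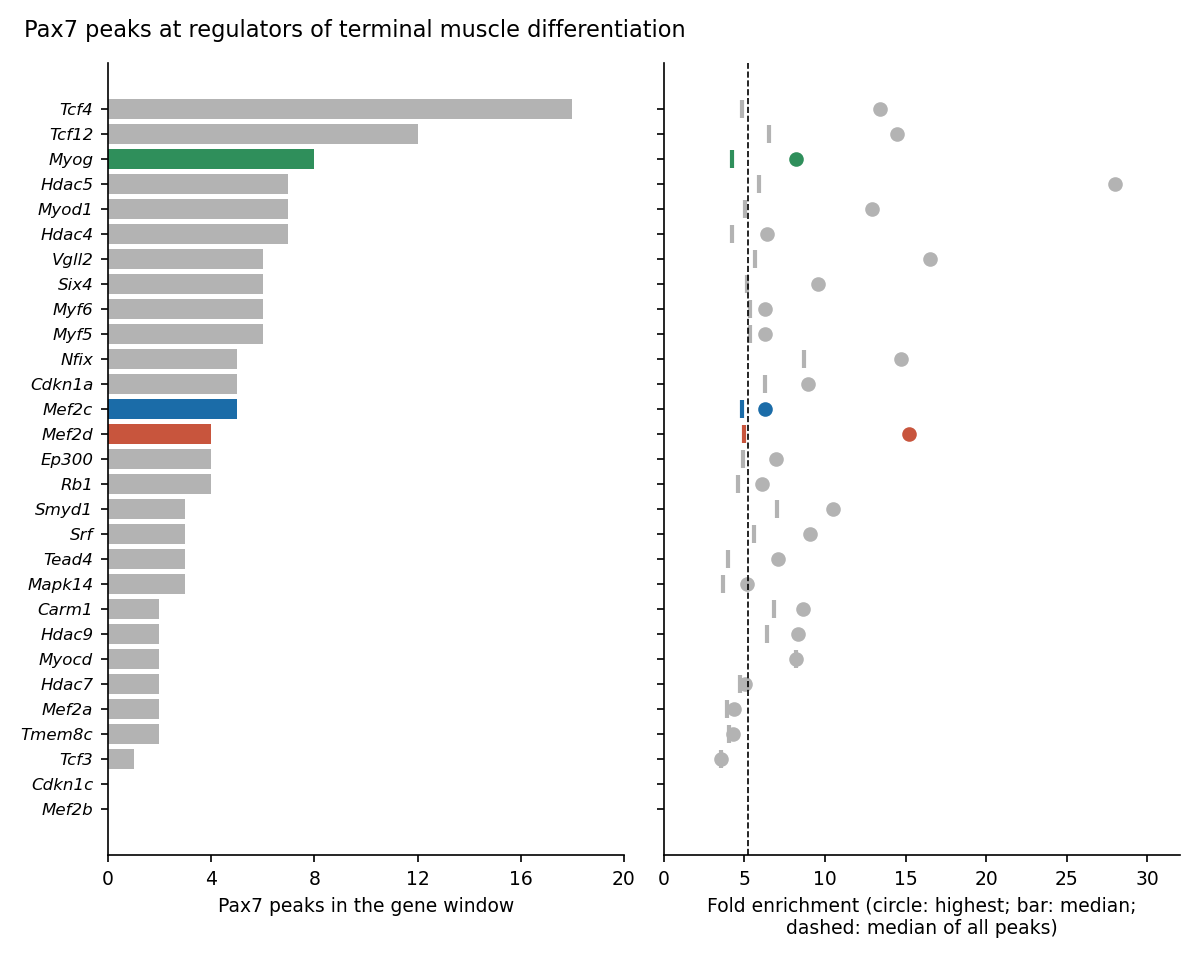
Pax7 peaks at Mef2c (blue), Mef2d (red), Myog (green) and 26 other regulators (grey), with the number of peaks in the gene window on the left and fold enrichment on the right, where circles are the highest and bars the median peak of a gene and the dashed line is the median of all peaks. Myog follows Tcf4 and Tcf12 by count with 8 peaks, while its highest value of 8.19-fold is well below the 28.0-fold of Hdac5.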

How the data were processed

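Pax7 ChIP-seq of Dox-treated iPax7 cells was analysed from 1 peak list. Single-end reads had been aligned by the authors to NCBIM37/mm9 (bowtie2), restricted to unique alignments, cleared of duplicates (Picard) and pooled over replicates, and MACS2 called peaks against the pooled inputs at a q-value limit of 0.01. The submitters' processing notes name MACS2 and mm9. The deposited columns used are the fold enrichment, which is a ratio of ChIP over local background, −log10 of q and the summit offset. The deposited score is −log10 q times 10 without its decimals and adds nothing, and −log10 of p was not used. Pooling hides the spread between libraries, and sequence without unique alignments cannot yield peaks.

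Summits were assigned to GENCODE vM1 genes extended by 100 kb, coordinates are 1-based, and of 2 records named Hdac4 the longer was used. The 17 members, the other regulators and the motifs were chosen with earlier results of these data known. All members are described. Of the planned lists, 1 regulator and 1 motif are not reported here. Of the other regulators, those with the most peaks, the highest fold enrichment or 0 peaks are named, with the MEF2 and bHLH genes. Sequences came from NCBIM37 and RefSeq (GRCm38.p6 tables). Window assignment and motif search were tested on simulated data. Python 3.11.15, numpy 2.4.6, pysam 0.24.0, samtools 1.23.1 and matplotlib 3.10.9 were used. No test was run, since the list holds no values per library.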

Additional observations from a re-analysis of the deposited data

How the results depend on the processing

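The peak counts depend on the width of the window and on the threshold. A fold enrichment of at least 5 left 2 peaks at Mef2c, 2 at Mef2d, 3 at Myog and 7 in all. Within 50 kb of the gene there were 2 at Mef2d, 3 at Myog and 9 in all. The gene body alone held 2 at Mef2c, 0 at Mef2d, 0 at Myog and 2 in all. With 100 kb on either side of the start site only, Mef2c had 3. Without peaks within 1 kb of another gene's start, an alternative chosen after the data were seen, Mef2d had 2. The share of coding genes with fewer peaks fell for Mef2c from 80.6% to 53.4% at 200 kb, to 63.8% around the start site and to 65.8% per 100 kb of window, and for Myog from 95.2% to 76.6% at 50 kb. Within 25 bp of the summit the homeodomain dimer was found at 0 peaks. Within 100 bp CAGCTG was found at 6, beside 26.2% of all peaks, and any CANNTG within 50 bp, also added later, at 4. Smaller shifts were also seen: at 200 kb there were 5, 6 and 11 peaks at Mef2c, Mef2d and Myog, at a −log10 q of at least 5 there were 5, 4 and 6, with a median at Myog of 5.85-fold, and GTCACG was found at 2 summits within 25 bp and 4 within 100 bp. No paired analysis was possible because the results come from 1 list of merged libraries and from no test, and no library could be left out for the same reason.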
